A study of Mus musculus with 12 samples.

Results

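Oxct1 encodes succinyl-CoA:3-oxoacid CoA transferase, the mitochondrial enzyme that lets a tissue burn ketone bodies. It was followed here in perigonadal fat of mice with gain or loss of Glut4, the insulin-responsive glucose transporter encoded by Slc2a4. Probe sets were taken where the platform annotation names 1 gene only, out of Oxct1, Acat1 and Bdh1. Of the 3 genes 1 was found, Oxct1, with 1 of the 12422 probe sets of the series; Acat1 and Bdh1 are not analysed here. Oxct1 was chosen from its own intensities in the Glut4 overexpressor comparison, so those values are given as a description, with no test. Its values in the knockout comparison, which did not put it forward, were tested.

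RNA was measured on 12 Affymetrix arrays, 1 per mouse, with 3 mice in each of 4 groups. All mice were labelled female, 6 months old and fed ad libitum. The overexpressors carried a Glut4 transgene driven by the aP2 promoter on an FVB background, and their controls were FVB littermates. The adipose Glut4 knockouts were compared with mice that carry the aP2-Cre transgene, both on a C57B6/FVB/SV129 mix, and the labels state neither the deleted part of Slc2a4 nor which species the transgene comes from. The aP2 promoter, that of Fabp4, is used to reach fat cells and is also active in some other cells, among them macrophages. Values are array intensities on a linear scale, and the smallest value was 21.9 on every array of the overexpressor line and 22.27 on every array of the knockout line. The lines thus look to have been processed apart, so levels are set side by side within a line only.

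Ketone bodies are made mainly in liver mitochondria, where Bdh1 reduces acetoacetate to β-hydroxybutyrate. Other tissues take them up through monocarboxylate transporters, and Bdh1 turns β-hydroxybutyrate back into acetoacetate. The Oxct1 enzyme then moves CoA from succinyl-CoA onto acetoacetate, and the thiolase Acat1 splits the acetoacetyl-CoA into acetyl-CoA for the citric acid cycle. Liver itself has almost no Oxct1, so it exports ketone bodies and does not use them.

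The stretch of genome just before the start of Oxct1 is shown because the level of Oxct1 RNA is the readout of both comparisons; the arrays do not show where that RNA begins. It is the 250 bases upstream of the RefSeq start on the plus strand of GRCm38.p6, at chr15:4026178-4026427, printed 5′ to 3′ with CG dinucleotides, the sites of DNA methylation in mammals, in capitals.
Oxct1 upstream: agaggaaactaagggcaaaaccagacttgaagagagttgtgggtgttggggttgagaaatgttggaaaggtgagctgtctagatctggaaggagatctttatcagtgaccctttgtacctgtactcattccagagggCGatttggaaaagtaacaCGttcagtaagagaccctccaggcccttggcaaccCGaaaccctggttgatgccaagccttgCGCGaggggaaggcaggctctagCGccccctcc
It holds 6 CG dinucleotides, against a median of 6 over 32851 upstream windows of the same length. Its G and C content was 52% against a median of 52.4%. On both strands, 5 short motifs were searched for, and none was found in this window. The nuclear receptor half-site AGGTCA was present in 14.0% of all windows of this length and the E-box CACGTG in 6.02%. The CCAAT box was present in 33.8%, the GC box GGGCGG in 32.7%, and the TATA box, searched as TATAAA, in 12.4%. No searched motif contains another. The arrays measure RNA and carry no data on binding at this window.

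The targeted gene was read first. The brighter Slc2a4 probe set gave 624.6, 1110 and 1042 on the overexpressor arrays and 639.0, 582.7 and 1212 on their controls, so the groups overlapped. On the knockout arrays it gave 377.5, 365.4 and 363.4, all below the 416.1, 513.5 and 614.2 of their controls. The log2 changes, 0.22 (SE 0.26, limma adjusted p = 0.930) and -0.43 (SE 0.26, limma adjusted p = 1), did not pass the threshold of 0.05, and 1.89% of tested probe sets lay fully lower in the knockouts. Since the deleted part and the transgene's species are unknown, this probe set does not check the labels.

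**Figure D1:**
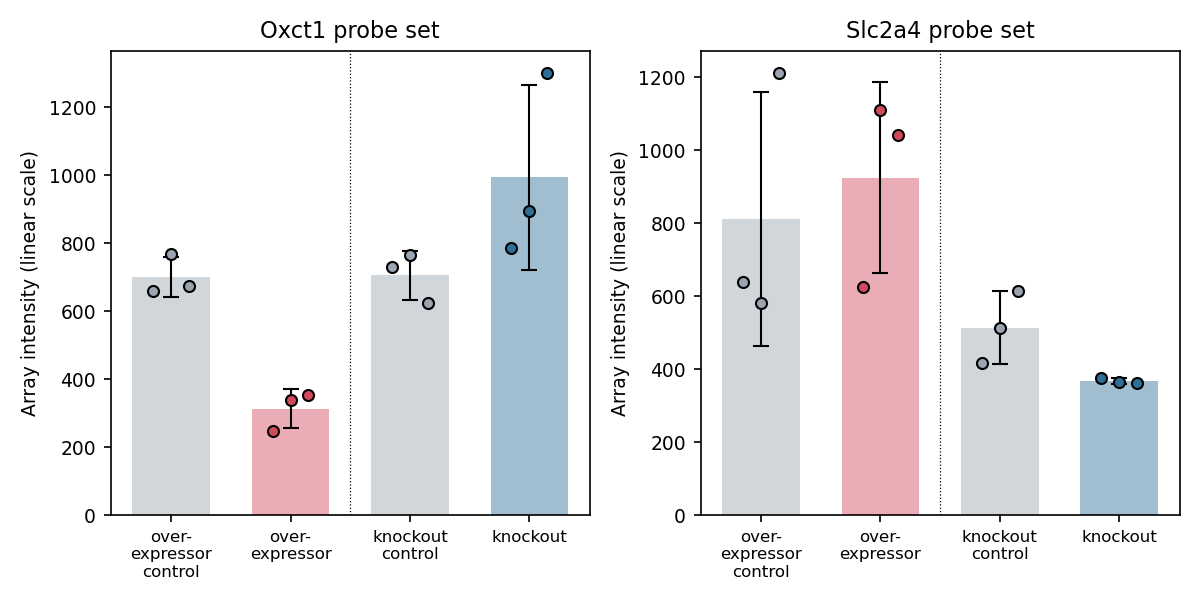
Array intensity on a linear scale of the Oxct1 (left) and Slc2a4 (right) probe sets; points are single mice, bars group means and whiskers ± SD, with n = 3 mice a group. Oxct1 lies between 247.0 and 353.3 in the overexpressors, below all 3 controls, and between 785.4 and 1301 in the knockouts, above all 3 of their controls; the dotted line separates the lines, which are not compared in level.

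In fat of Glut4 overexpressors, Oxct1 read lower than in the littermate controls. Its intensities were 247.0, 340.2 and 353.3 in the overexpressors and 660.0, 767.6 and 674.8 in the controls. Every overexpressor lay below every control, and the gap between the groups was wider than the range within either of them. The means were 313 ± 58.0 and 701 ± 58.3 (SD, n = 3 mice each), a control mean 2.24 times the overexpressor mean. On the scale log2(intensity + 36.92), the difference was -1.09 with an SE of 0.18 and a 95% interval of -1.48 to -0.69. Since Oxct1 was chosen from this comparison, the interval is a description and not a test against 0. In whole tissue, fewer cells that express a gene and less of its RNA per cell cannot be told apart.

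The place of that value among all probe sets is also a description. Of 7454 tested probe sets, 11 had a more negative log2 difference in this comparison, 483 (6.48%) had every overexpressor below every control, and 171 (2.29%) had every overexpressor above. With limma and Benjamini-Hochberg adjustment over those probe sets, 6 (0.0805%) were called at 0.05, 2 higher (0.0268%) and 4 lower (0.0537%). Before adjustment, 92 higher (1.23%) and 263 lower (3.53%) had a p under 0.05. The split of calls by direction turned to 7 higher and 6 lower with array medians subtracted, and to 6 and 5 with quantile normalization. The Oxct1 difference lay between -1.17 and -0.94 over the processing alternatives tried. Of these, only the constant, the normalization and leaving out arrays of this line can move it. It was -0.94 without overexpressor 1, the dimmest array of the line with a median intensity of 188.1 and the one with the lowest Oxct1.

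In fat of Glut4 knockouts, Oxct1 lay higher than in the aP2-Cre controls, but the difference did not pass the test. The intensities were 785.4, 896.4 and 1301 in the knockouts and 729.5, 764.5 and 624.9 in the controls. Every knockout was above every control, although knockout 1 exceeded control 2 by a margin smaller than the spread within either group. The means were 994 ± 272 and 706 ± 72.6 (SD, n = 3 mice each), a ratio of 1.41. The log2 change was 0.45 (SE 0.18, 95% interval 0.06 to 0.84, limma unadjusted p = 0.0286, adjusted p = 1 over 7454 probe sets). Such complete separation upward was found for 419 tested probe sets (5.62%), a higher level with unadjusted p under 0.05 for 259 (3.47%), and an adjusted p under 0.05 for 9 (0.121%), all higher. By limma 0 probe sets (0%) were called lower, where 38 (0.51%) had an unadjusted p under 0.05. A larger positive log2 change than that of Oxct1 was found for 157 probe sets (2.11%).

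Knockout 3 carried much of the knockout value. Without that mouse the log2 change was 0.24 (limma adjusted p = 1), and leaving out any other array gave 0.36 to 0.59, with an adjusted p between 0.841 and 1 over all alternatives. Without knockout control 3, the dimmest array of this line with a median intensity of 185.8, the change was 0.36. Subtracting array medians gave 0.38 and quantile normalization 0.36. The direction was kept in each alternative that can move the estimate, which the filter, the replicate block and arrays of the other line cannot.

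**Figure D2:**
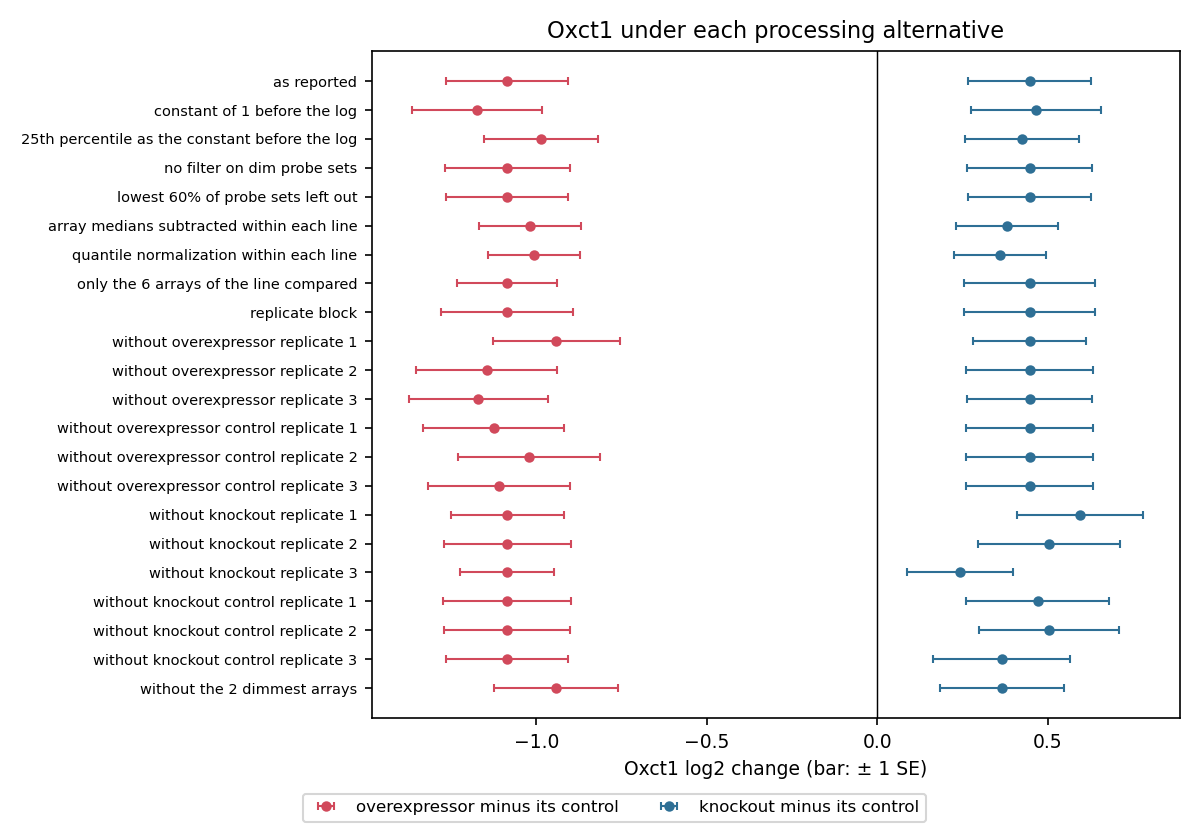
Log2 difference of Oxct1 between mutant and control, with bars of ± 1 SE, as reported and under each of the 21 processing alternatives. The overexpressor values (red) lie between -1.17 and -0.94 and the knockout values (blue) between 0.24 and 0.59, the lowest being without knockout 3. Changes of the filter, the replicate block and arrays of the other line leave the estimate as it is.

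Set side by side, the log2 differences of Oxct1 from the line's own controls were -1.09 in overexpressors, the comparison it was chosen from, and 0.45 in knockouts, which did not pass the test. The pattern of all overexpressors below and all knockouts above their controls was present in 40 of 7454 tested probe sets (0.537%). That share is a description, since the pattern includes the comparison that Oxct1 was chosen from. Every knockout lay above every control for 5.62% of tested probe sets. The difference between the effects was -1.53 (SE 0.25), and it was not tested because it contains the comparison that put Oxct1 forward.

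White adipocyte markers were bright on every array, though not all of them were level between groups. The adipocyte genes Adipoq, which encodes adiponectin, and Fabp4, a fatty acid binding protein, read from 5196 to 6986 and from 3488 to 5152 over the 12 arrays. The summed intensity of 6 measured white adipocyte markers, out of 8 listed, ran from 18490 to 24333 in overexpressors and from 20922 to 23672 in their controls. It ran from 21324 to 24062 in knockouts and from 20402 to 21768 in their controls, so the groups overlapped in both lines. Cidec, a lipid droplet protein of the same list, differed from that sum, and it and Lep are named after their values were seen. Cidec read 1139, 1728 and 1792 in overexpressors, all below the 2243, 2856 and 2834 of their controls (log2 change -0.77, SE 0.18, limma adjusted p = 0.307). In knockouts Cidec overlapped with controls (0.25, SE 0.18, limma adjusted p = 1). Lep, which encodes leptin, was at 0.03 in overexpressors and 0.50 in knockouts (SE 0.23 each, limma adjusted p = 0.988 and 1). Their part in the Oxct1 values was not tested.

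Skeletal muscle is a main user of ketone bodies, and its markers differed between single mice. The sum of 6 muscle markers was 8019 on knockout 3, the array with the highest Oxct1 of its line. It was 2382 and 1904 on the other knockouts and 2000 to 4070 on their controls. On knockout 3 the muscle actin Acta1 read 3781 and the troponin gene Tnnt3 1020, while Ckm, the muscle creatine kinase, read 69.7, below its 3 controls. Knockout 2 had the lowest sum of its line, with Oxct1 at 896.4, above all its controls. In the overexpressor line the sum of muscle markers overlapped, at 1460 to 4658 against 2013 to 3930 in controls. Overexpressor 1 was lowest, and overexpressor 3 was highest with Oxct1 at 353.3, below all its controls. Neither the muscle nor the brown fat list had a marker at the smallest intensity on all arrays of a group. The part of muscle RNA in the Oxct1 values was not tested.

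The sum of 6 brown fat markers was 855 to 2809 in overexpressors and 1435 to 4337 in their controls. In the knockout line it was 3463 to 4963 against 1156 to 4629. Ucp1, the uncoupling protein that defines brown and beige fat, ranged from 50.4 on knockout control 1 to 1452 on knockout 1, and its log2 changes of -0.97 (SE 0.86) and 1.28 (SE 0.86) did not pass limma's test (adjusted p = 0.918 and 1). All 5 tested markers had a lower mean in overexpressors (median log2 change -0.31) and a higher mean in knockouts (median 0.55), with overlapping groups, and their part in the Oxct1 values was not tested.

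Markers of connective tissue also had lower means in overexpressors. All 7 fibroblast markers had a lower mean (median -0.40), with a sum of 16420 to 19811 against 18852 to 27450 in controls, and all 5 smooth muscle markers did (median -0.53, sum 6907 to 7466 against 6822 to 12796). So did 6 of 6 tested endothelial markers (median -0.27, sum 2220 to 3024 against 2717 to 3455). The same held for 6 of 6 tested macrophage markers (median -0.30, sum of 7 measured markers 3484 to 3833 against 3153 to 6609). Each of these sums overlapped between the groups, and 5240 of all 7454 tested probe sets had a lower mean in overexpressors. In knockouts the medians were -0.13 for fibroblast, -0.38 for smooth muscle, 0.10 for endothelial and 0.06 for macrophage markers. No marker of the 13 cell type lists passed limma's adjusted threshold in either comparison. The part of these cells in the Oxct1 values was not tested.

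The other genes of ketone metabolism and of the steps it feeds came from 8 lists with 64 genes in all. Of these, 38 were tested, 8 were too dim and 18 had no probe set that the annotation ties to them alone. None passed limma's adjusted threshold in either comparison, against 0.0805% and 0.121% of all probe sets, and an unadjusted p under 0.05 was found for 4 in the overexpressors, all lower, and 2 in the knockouts, both higher, beside 3.53% of all probe sets lower in overexpressors and 3.47% higher in knockouts by the same measure. The isoleucine and leucine breakdown list gave 3 of those 4 and both of those 2. Its 8 tested genes were listed with lower levels of such genes in overexpressors already known. The overexpressor counts given here are therefore not independent evidence. In overexpressors 34 of the 38 had a lower mean (median log2 change -0.16), those 8 among them, beside 5240 of all 7454 probe sets (median -0.07). In knockouts 37 of the 38 had a higher mean (median 0.25), beside 4693 of 7454 (median 0.04). With quantile normalization these counts were 30 of 38 lower (3537 of all probe sets) and 34 of 38 higher (3482 of all). With array medians subtracted they were 32 lower (3844 of all) and 34 higher (3240 of all). Without overexpressor 1, 18 of 38 had a lower mean (median 0.02), beside 4214 of all probe sets, whereas Oxct1 was at -0.94. Without overexpressor 2 the overexpressor median was -0.29, and that of the knockouts ranged from 0.14 (knockout control 1 left out) to 0.38 (knockout control 2 left out).

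Of the 5 other listed genes of ketone body use and its relatives, 1 was tested. This was Hmgcs1, the cytosolic HMG-CoA synthase, which condenses acetoacetyl-CoA with acetyl-CoA on the way to cholesterol. It read 420.5, 746.3 and 669.5 in overexpressors and 988.1, 949.2 and 1336 in controls, with no overlap (log2 change -0.82, SE 0.25, limma adjusted p = 0.673). In knockouts it read 1129, 1355 and 2166, and 1272, 933.3 and 966.9 in controls, which overlapped (0.50, SE 0.25, limma adjusted p = 1). As for Oxct1, the highest value of the knockout line was that of knockout 3, and without it the change was 0.23.

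Genes of ketone body transport differed little beside their spread. Bsg, the chaperone that carries monocarboxylate transporters to the cell surface, had log2 changes of -0.21 in overexpressors and 0.21 in knockouts (SE 0.22 each, limma adjusted p = 0.928 and 1). Emb, its relative, had changes of -0.17 and -0.05 (SE 0.14 each, limma adjusted p = 0.913 and 1). Slc16a1 and Slc16a7, the transporters MCT1 and MCT2, were too dim to test, at 57.4 to 197.7 and 46.3 to 106.6 over the 12 arrays. The Bsg change in the knockouts turned to -0.01 without knockout control 3, and that of Emb to 0.01 without knockout 2 and 0.06 without knockout control 2.

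Among regulators, Ppara, the nuclear receptor that drives fasting ketogenesis, was at -0.06 in overexpressors and 0.29 in knockouts. Cpt1a, which admits fatty acids to mitochondria, was at -0.22 and 0.11, and the liver factor Foxa2 at 0.08 and 0.07. None passed limma's test (adjusted p from 0.918 to 1). The sign of Ppara in overexpressors changed with array medians subtracted (0.0050) and without overexpressor 1 (0.04) or overexpressor control 3 (0.07), and that of Cpt1a in knockouts without knockout 3 (-0.05).

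The branched-chain amino acid genes of the list, whose breakdown yields acetoacetate and acetyl-CoA, included genes close to Oxct1 in size of change. This list was drawn up with the lower levels of such genes in overexpressors already known, so its direction is not independent evidence. All 8 tested members had a lower mean in overexpressors (median -0.36), 7 with quantile normalization or array medians subtracted, where Auh turned to 0.07 and 0.06. Without overexpressor 1 the median was -0.15, with 6 of 8 lower. All 8 had a higher mean in knockouts (median 0.31), 7 with either scaling, and the median was 0.17 without knockout control 1. Bcat2, the mitochondrial aminotransferase that starts the pathway, read 123.5, 174.4 and 217.9 in overexpressors, all below the 392.0, 340.6 and 405.3 of their controls (log2 change -1.02, SE 0.28, limma adjusted p = 0.510). In knockouts Bcat2 overlapped with controls (0.44, SE 0.28, limma adjusted p = 1), with 0.12 without knockout control 1 and 0.81 without knockout control 2. Mccc1, a subunit of the leucine enzyme methylcrotonyl-CoA carboxylase, was at -0.94 in overexpressors (SE 0.23, limma adjusted p = 0.360) and 0.46 in knockouts (SE 0.23, limma adjusted p = 1).

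With Hmgcs1, Bcat2 and Mccc1, Ivd completed the 4 genes with an unadjusted p under 0.05 in overexpressors, and Ivd and Auh were the 2 in knockouts; Ivd and Auh are named after their values were seen. Ivd, isovaleryl-CoA dehydrogenase of leucine breakdown, was at -0.59 and 0.43 (SE 0.18 each, limma adjusted p = 0.633 and 1). Auh, the hydratase of the same pathway, was at -0.01 and 0.30 (SE 0.11 each, limma adjusted p = 0.992 and 1), the first turning to between 0.01 and 0.07 without overexpressor 1 or overexpressor control 3.

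Enzymes that share substrates with Oxct1 had smaller differences in overexpressors. The list of citric acid cycle partners, which supply its succinyl-CoA and take up its acetyl-CoA, had 9 of 9 members lower (median -0.14), 7 with quantile normalization, 5 without overexpressor control 3 and 2 without overexpressor 1 (median 0.07). In knockouts 9 of 9 were higher (median 0.22), and 8 with either scaling. The knockout median ran from 0.14 without knockout control 1 to 0.38 without knockout control 2. Sucla2, a subunit of succinyl-CoA synthetase, was at -0.28 and 0.41 (SE 0.29 each), and Dlst, of the 2-oxoglutarate dehydrogenase complex, at -0.24 and 0.34 (SE 0.24 each). Without overexpressor 1, Sucla2 turned to 0.07 and Dlst to 0.04.

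Of 6 tested beta-oxidation enzymes, 5 were lower in overexpressors (median -0.19, and -0.03 without overexpressor 1) and 6 higher in knockouts (median 0.31, from 0.20 without knockout control 1 to 0.50 without knockout control 2). Acaa2, a mitochondrial thiolase related to Acat1, was at -0.33 and 0.28 (SE 0.19 each). The acyl-CoA dehydrogenases Acadl (-0.29 and 0.45, SE 0.22 each) and Acadm (-0.25 and 0.40, SE 0.19 each) lay alike. Limma's adjusted p of the genes named for these lists ran from 0.913 to 1.

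Genes of general mitochondrial content are a background for a mitochondrial enzyme such as that of Oxct1. In overexpressors 7 of 9 were lower with a median of -0.12, 6 with quantile normalization (median -0.02), and without overexpressor 1 the count was 2, with a median of 0.08. Cox4i1 was at -0.19 (0.10 without overexpressor 1), Uqcrc1 at -0.24, Cycs at 0.17 (-0.01 without overexpressor 2) and Ndufs1 at 0.06, the last turning to between -0.13 and -0.0054 without overexpressor 2, overexpressor 3, overexpressor control 1 or overexpressor control 2. In knockouts 9 of 9 were higher with a median of 0.23 (8 with either scaling, and a median from 0.13 without knockout control 3 to 0.42 without knockout control 2), among them Cycs, cytochrome c, at 0.40, Ndufs1 at 0.34, Uqcrc1 at 0.25 and Cox4i1 at 0.13. Limma's adjusted p for these was 0.913 to 1. Knockout 3 had the highest sum of its line, at 15074, and overexpressor 1 the lowest of the other line, at 9537. Overexpressor 2 and overexpressor 3 had sums of 15336 and 14330, within the 13228 to 15808 of their controls, with Oxct1 at 340.2 and 353.3. The part of mitochondrial content in the Oxct1 values was not tested.

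**Figure D3:**
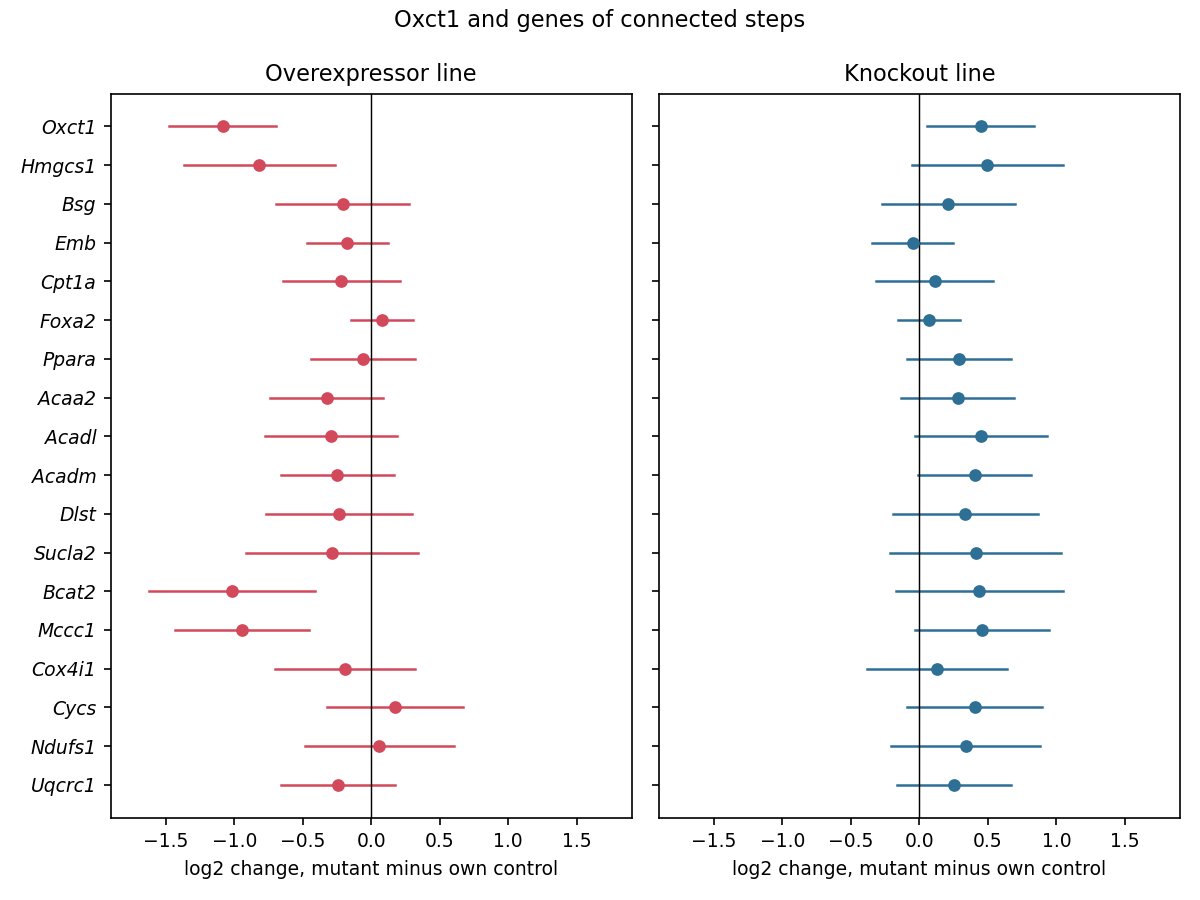
Log2 change of Oxct1 and 17 genes of connected steps in overexpressors (left) and knockouts (right), each against its own control; points are estimates from 3 against 3 mice and lines their 95% intervals from limma. Oxct1, Hmgcs1, Bcat2 and Mccc1 lie at -1.09, -0.82, -1.02 and -0.94 in overexpressors. The intervals of Hmgcs1 (-1.37 to -0.27), Bcat2 (-1.63 to -0.41) and Mccc1 (-1.43 to -0.45) overlap those of Uqcrc1 (-0.66 to 0.17) and Cox4i1 (-0.70 to 0.32). They also overlap that of Ndufs1 (-0.48 to 0.60), while among them only that of Hmgcs1 overlaps that of Cycs (-0.32 to 0.67). That of Oxct1 (-1.48 to -0.69) overlaps that of Cox4i1, ends just below that of Uqcrc1 and lies below those of Ndufs1 and Cycs. It is a description, since Oxct1 was chosen from this comparison.

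To find genes that followed Oxct1 from mouse to mouse, the mean of each line was subtracted from the log2 values and Pearson's r with Oxct1 was taken over 12 arrays for 5706 other tested genes. These values share arrays, groups and scaling, contain the comparison that put Oxct1 forward, and describe likeness only. The median r over all genes was 0.34. The 5 genes with the highest r were C9orf72 (0.95), Lmo4 (0.92), Mccc1 (0.92), Nnmt (0.91) and Mpdu1 (0.91).

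C9orf72, known for its repeat expansion in motor neuron disease, read 565.6, 680.7 and 662.9 in overexpressors, all below the 944.2, 966.6 and 966.2 of their controls. In knockouts it read 1190, 1354 and 1545, all above the 956.9, 1147 and 1077 of their controls. Its log2 changes of -0.57 (SE 0.12, limma adjusted p = 0.244) and 0.35 (SE 0.12) passed limma's adjusted threshold in neither line. Nnmt, which methylates nicotinamide, read 291.3, 281.2 and 360.6 against 820.8, 899.2 and 849.1 in the overexpressor line. Nnmt was among the 4 probe sets called lower (log2 change -1.37, SE 0.13, limma adjusted p = 0.00115). In the knockout line Nnmt read 1023, 1310 and 1151 against 690.3, 843.6 and 769.5 (0.57, SE 0.13, limma adjusted p = 0.382). These 2 genes separated both mutant groups from their controls in the directions of Oxct1, whereas Lmo4, Mccc1 and Mpdu1 overlapped in the knockout line. Such separation in both lines was present in 0.537% of tested probe sets. The genes were picked by r with Oxct1 over these same arrays, so their separation follows in part from that choice.

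The likeness came in part from differences between groups. After group means were also subtracted, r with Oxct1 was 0.87 for Lmo4, 0.80 for C9orf72 and Mpdu1, 0.73 for Mccc1 and 0.33 for Nnmt. It was taken in this form for these genes only, so no value over all genes stands beside it. Before group means were subtracted, the median r of the lists was 0.73 for the 8 genes of isoleucine and leucine breakdown, 0.63 for the 6 of beta-oxidation, 0.57 for the 9 citric acid cycle partners and 0.57 for the 9 of mitochondrial content. In the same measure it was 0.39 for the 2 tested genes of ketone body transport and 0.21 for the 3 of ketogenic regulation, beside 0.34 over all genes. Both Oxct1 and the isoleucine and leucine list were chosen with lower levels in overexpressors known. The r of that list follows in part from this choice and is not independent evidence.

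**Figure D4:**
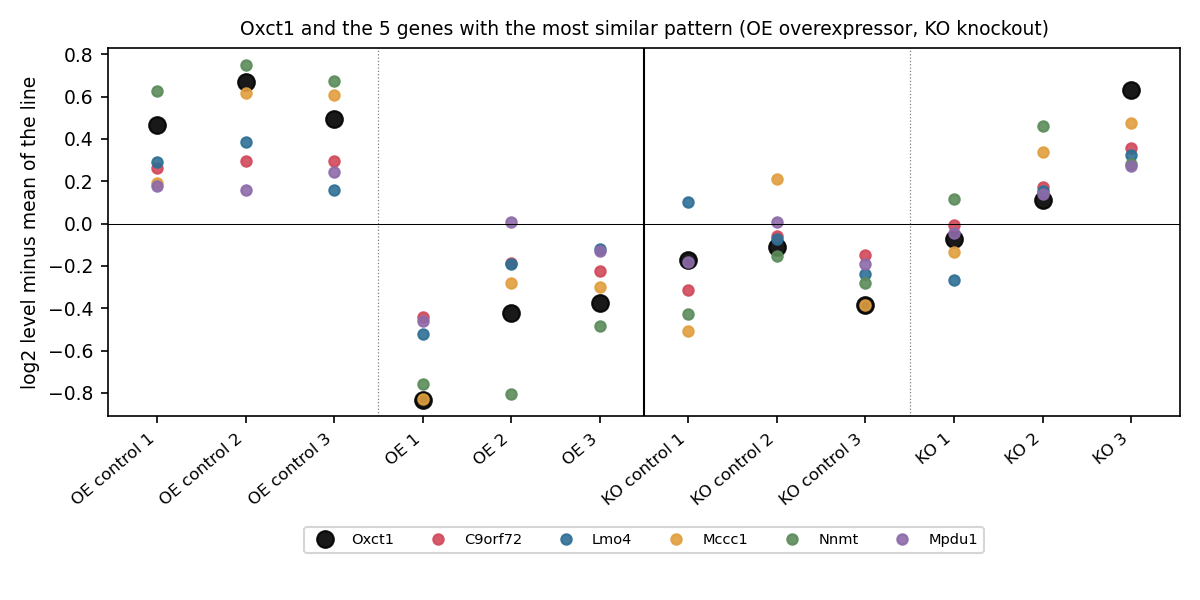
Log2 level of Oxct1 and of the 5 genes with the highest r, each minus its mean over the 6 arrays of its line, on the 12 arrays; each point is 1 mouse and colours mark genes. In the overexpressor line Oxct1 falls from between 0.46 and 0.67 in controls to between -0.83 and -0.37 in overexpressors, and in the knockout line it spans -0.39 to 0.63 with knockout 3 highest.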

How the data were processed

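RNA of perigonadal fat from 12 mice was measured on Affymetrix arrays; per the labels, it was extracted with a Qiagen RNeasy kit and labelled with biotin. Each array has 1 deposited intensity per probe set; how it was summarised and scaled is not given in the sources used here. Groups came from sample titles, since the genotype field does not separate controls. The members and gene lists were chosen with earlier results of these data known.

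The scale was log2(intensity + 36.92), where 36.92 is the table's 10th percentile. Array medians spanned 0.20 on this scale, under the limit of 0.5 for further scaling. The 40% of probe sets with the lowest mean were left out, and 7454 of 12422 tested. With limma 3.58.1 (R 4.3.3, eBayes with trend), 1 mean per group was estimated from the 12 arrays, leaving 8 residual degrees of freedom, with Benjamini-Hochberg adjustment and a threshold of 0.05. The fit was tested on simulated data.

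Genes were named from the platform annotation (10833 probe sets with 1 symbol, 396 with several, 1193 with none), with symbols updated by gene ID for 10817. The brightest probe set stood for a gene. Upstream sequence came from RefSeq, GRCm38.p6. Named genes were Oxct1, Slc2a4, tested genes of the first 3 lists (ketone body formation, relatives, transport), every called list member, the 2 with the largest change per other list and comparison, and the 5 most alike. Arrays give no read depth, and their number limits the precision. Alternatives were the constant, the filter, the normalization, each line alone, the replicate number as a block and leaving out arrays. Figures used matplotlib 3.10.9.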

Additional observations from a re-analysis of the deposited data

Results flagged for a closer look

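The Oxct1 values of the lines lay on opposite sides of their controls. All 3 overexpressors lay below and all 3 knockouts above their controls, and the log2 effects differed by -1.53 (overexpressor minus knockout). Of tested probe sets, 6.48% lay fully lower in overexpressors, 5.62% fully higher in knockouts, and 0.537% did both. The knockout difference itself did not pass the test (0.45, limma adjusted p = 1) and was 0.24 without knockout 3. The difference between the lines was not tested, since Oxct1 was put forward from the overexpressor values.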

How the results depend on the processing

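Oxct1 kept its direction in all 21 alternatives of both comparisons, but some of these cannot move its estimate. They are the filter, the line's own 6 arrays, the replicate block and leaving out arrays of the other line. In overexpressors Oxct1 was also chosen from these same values. Leaving out 1 array gave -1.17 to -0.94 in overexpressors and 0.24 to 0.59 in knockouts. For all probe sets, leaving out 1 array gave 3 to 21 calls in overexpressors (3 without overexpressor control 2, 21 without overexpressor control 3) and 6 to 11 in knockouts. Array medians subtracted gave 13 overexpressor calls, quantile normalization 11 and the line's own 6 arrays 1. The replicate block, the number of a mouse entered as a term, cannot move a difference between groups of equal size, only its SE. With it the SE of Oxct1 went from 0.18 to 0.19, and knockout calls went from 9 to 0. The numbers did not pair the mice: deviations of same-numbered arrays correlated at -0.35 to 0.02, and no array correlated best with its own number. Leaving out the 2 dimmest arrays was chosen after seeing the data; Oxct1 was then at -0.94 and 0.36, and signs turned for Bsg in knockouts (-0.013) and, in overexpressors, for Cox4i1 (0.10), Dlst (0.044), Ppara (0.040), Sucla2 (0.069) and Auh (0.072). In overexpressors Ppara turned with array medians subtracted (0.0050), and Auh did so with medians subtracted (0.057) and with quantile normalization (0.074). Leaving out 1 array gave ranges across 0 in overexpressors for Cox4i1 (-0.40 to 0.10), Cycs (-0.012 to 0.40), Dlst (-0.40 to 0.044), Ndufs1 (-0.13 to 0.36), Ppara (-0.18 to 0.070), Sucla2 (-0.55 to 0.069) and Auh (-0.060 to 0.072), and in knockouts for Bsg (-0.013 to 0.33), Cpt1a (-0.048 to 0.28) and Emb (-0.16 to 0.056). No named list gene changed sides of the threshold. The causes were not tested.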
